A study of Mus musculus with 2 samples.

Results

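Mir378a is the mouse gene of miR-378a, and its counts are described here beside those of Gm25301, a predicted microRNA gene annotated over the same bases on the other strand. These are 2 of the 2202 microRNA genes counted in each library. Mir378a was taken by its name in the GENCODE M21 annotation and Gm25301 by its overlap with it. Mir378a was selected on its gene-strand counts, the highest in these hearts, so its level is given as a description, with no test. The tissue was heart of male B6CASTF1/J mice aged 10 days, the hybrid offspring of the C57BL/6J strain and the wild-derived CAST strain, with no treatment given in the labels. There were 2 libraries of short RNA, biological replicates 1 and 2 of 1 group, so no contrast between conditions exists. The labels give the libraries separate sample identifiers and a common donor identifier, and nothing states separate litters. The spread between them may therefore be partly technical. The libraries held 3748432 and 6305782 reads on the strand of a microRNA gene. Cardiac muscle microRNAs (6 of 7 list genes detected) took 0.832% and 1.25% of these counts. Reads that mapped to more than 1 place are in no gene count, so list genes with a shared mature form can be counted low. Mir1a-2 of this list had 162 and 628 counts. All shares given here are of uniquely mapped reads and do not rank the cell types. Endothelial microRNAs took 8.90% and 10.1%, smooth muscle ones 4.48% and 5.33% and erythroid ones 0.991% and 0.870%, and neural microRNAs had 2 counts per library.

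A microRNA is cut from a hairpin transcript and, bound to an Argonaute protein, lowers the output of messenger RNAs that pair with its seed, a short stretch near its 5′ end. Mir378a lies in Ppargc1b, whose product, PGC-1 beta, is a coactivator of genes of mitochondrial biogenesis and fatty acid oxidation. The hairpin can give a mature form from either arm. In mice, loss of both forms has been linked to higher oxidative capacity, and in heart muscle cells miR-378a is known for targets in growth factor signalling. The postnatal heart is shifting toward fatty acid use at this age. The counts are per gene and do not separate the arms.

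Mir378a (ENSMUSG00000105200.1) occupies 66 bases of the minus strand, chromosome 18, 61397835 to 61397900 in mm10. It sits in the first intron of all 3 annotated transcripts of Ppargc1b (chromosome 18, 61298136 to 61400431, minus strand), on the strand of that gene. It starts 2389 bases beyond the end of the first exon and overlaps no exon. The first intron of the 2 coding transcripts is 17766 and 76981 bases long. Detected genes, those that reached 10 counts in replicate 1 and in replicate 2, numbered 340. Of these, 125 lay in an intron of a protein-coding gene on the same strand, and 28 of these lay in first introns only. Mir378a held 33.2% of the counts of those 125 genes in replicate 1 and 31.7% in replicate 2. The next intronic gene was Mirlet7g, in Wdr82, at 69882 CPM (counts per 1000000 gene-strand counts).

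Gm25301 (ENSMUSG00000093026.1) occupies 113 bases of the plus strand, chromosome 18, 61397813 to 61397925. It covers all 66 bases of Mir378a and runs 22 bases beyond them on one side and 25 on the other. The predicted folds of the hairpins were about equally stable per base, with minimum free energies of -38.5 kcal/mol for Mir378a and -65.7 kcal/mol for Gm25301. Per base these are -0.58 and -0.58 kcal/mol, against a median of -0.43 over the 340 detected hairpins. Of the detected hairpins, 25 had a lower energy per base than Mir378a. Its 66 bases are fewer than the median of 83 over detected hairpins. Its share of G and C bases was 54.5%, against a median of 50.6%. The part of length and base content in this energy was not tested. Thus both strands of this piece of the intron are predicted to fold, and the annotation names a microRNA gene on each. The 66 shared bases are reverse complements, so folds of like stability are largely built in. They are no evidence for a second microRNA gene.

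Other genes carry the name of the family, and reads of Mir378a could also fit them. Their mature forms were compared in RefSeq on GRCm38.p6, taking bases 2 to 8 as the seed; no sequence of this family is printed. Counted from the 5′ end of miR-378c, miR-378d carries A6C and C21G, and the first of these lies in the seed. miR-378b begins at base 2 of miR-378c and carries C21A, so its annotated seed is moved by 1 base. These 3 forms therefore have 3 different seeds as annotated. The mature form of Mir378a was not in the table and its seed was not compared in this way, but its hairpin holds bases 1 to 20 of miR-378c, the seed of that form included. Against the hairpin of Mir378a, the longest identical stretch on the same strand was 20 bases in Mir378c, 19 in Mir378b and 15 in Mir378d. One further hairpin, Gm27881, shared 16 bases and had 4 and 10 counts; it was picked out after its values were seen. A read that lies inside such a stretch fits both places. Reads that mapped to more than 1 place were left out of every gene count, and they were 36.8% and 48.1% of the reads in replicates 1 and 2.

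Mir378a had 520122 counts in replicate 1 and 869257 in replicate 2. Among uniquely mapped reads it was the first-ranked gene of both libraries, at 138757 CPM and 137851 CPM. Multi-mapped reads, 36.8% and 48.1% of all reads, are in no gene count. MicroRNAs whose mature form fits several genes can therefore be counted low, and the rank does not cover them. Its share of gene-strand counts was 13.88% in replicate 1 and 13.79% in replicate 2, with exact Clopper-Pearson 95% intervals of 13.84% to 13.91% and 13.76% to 13.81%. Intervals cover counting error only, since amplified reads are not independent molecules. The mean was 138304 ± 641 CPM (SD, n = 2), so on the CPM scale the SD was 0.463% of the mean. For the other 75 genes whose mean reached 1000 CPM, the SDs had a median of 20.3% of the mean, and 2 of them had a smaller one. Of all reads, mapped or not, Mir378a took 5.89% and 5.10%. On that scale replicate 1 was the higher, and the share of multi-mapped reads differed between the libraries in the other direction; its part in the difference was not tested.

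Among uniquely mapped reads, the lead of Mir378a over the next genes was present in each library. In replicate 1 the second gene was Mirlet7i, of the let-7 family of differentiation-linked microRNAs, at 110313 CPM, and Mir378a exceeded it 1.26-fold. In replicate 2 the second gene was the endothelial Mir126a at 100563 CPM, exceeded 1.37-fold. Mirlet7i had 81404 CPM in replicate 2 and Mir126a 88956 CPM in replicate 1, so the order of that pair changed between the libraries while both stayed below Mir378a. Mirlet7g followed with 72901 and 66863 CPM, and Mir99a, of the miR-99/100 family, with 54214 and 47969 CPM. Their values did not overlap each other or those of Mir378a. Against the median detected gene, at 79.0 CPM in replicate 1 and 67.9 CPM in replicate 2, Mir378a stood 1757-fold and 2031-fold higher. Per base of annotated hairpin it was also first in both, with 2102 and 2089 CPM per base. Next were Mirlet7i (1298) in replicate 1 and Mir126a (1378) in replicate 2. The counts do not show which bases of a hairpin the reads cover, so the values per base are a description only. In bulk tissue, fewer cells of a type and less RNA per cell cannot be told apart, and the libraries do not show which heart cells gave these reads.

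**Figure D1:**
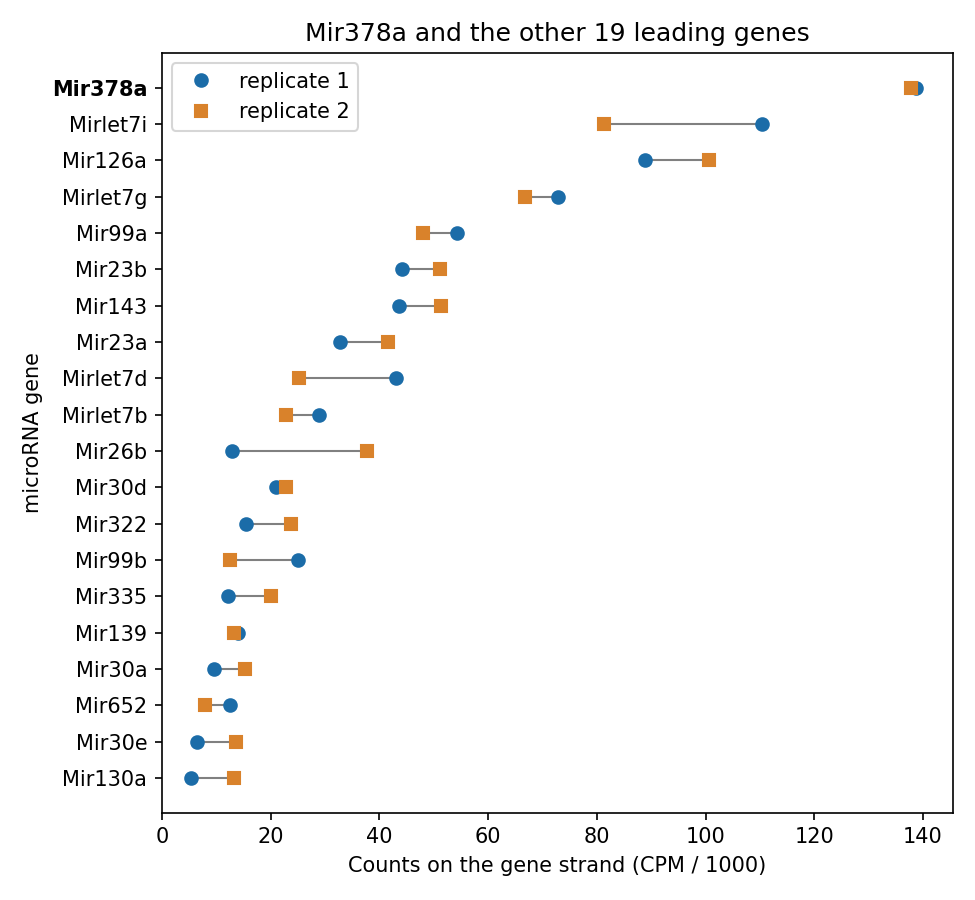
Gene-strand counts (horizontal axis, CPM divided by 1000) of the 20 genes with the highest mean, with circles for replicate 1, squares for replicate 2 and a line between them. Both Mir378a points, at 138757 and 137851 CPM, lie to the right of every other point. They are close together, as are those of Mir139 (13980 and 13235 CPM), while those of Mir26b (12906 and 37666 CPM) are far apart.

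The level of Mir378a depended wholly on the strand of the reads. In the column for reads on either strand it had 0 counts in replicate 1 and 0 in replicate 2, against 520122 and 869257 on its own strand. In the column for the opposite strand it had 0 and 1. Gm25301 showed the mirror image. On its own strand it had 0 counts in replicate 1, which allows up to 0.8003 CPM (3 counts), and 1 count in replicate 2. On the strand opposite to it, that is the strand of Mir378a, it had 520122 and 869258. The opposite-strand count of Gm25301 thus equalled the gene-strand count of Mir378a in replicate 1 and exceeded it by 1 in replicate 2. Mir378a took 100% of the gene-strand counts of the pair in replicate 1 (exact 95% interval 99.9993% to 100%). The interval in replicate 2 ran from 99.9994% to 99.999997%. In replicate 1 Mir378a was at least 173374-fold above Gm25301, taking 3 counts as the floor for that library. No ratio between the libraries is given for Gm25301, whose counts were under the floor in both.

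**Figure D2:**
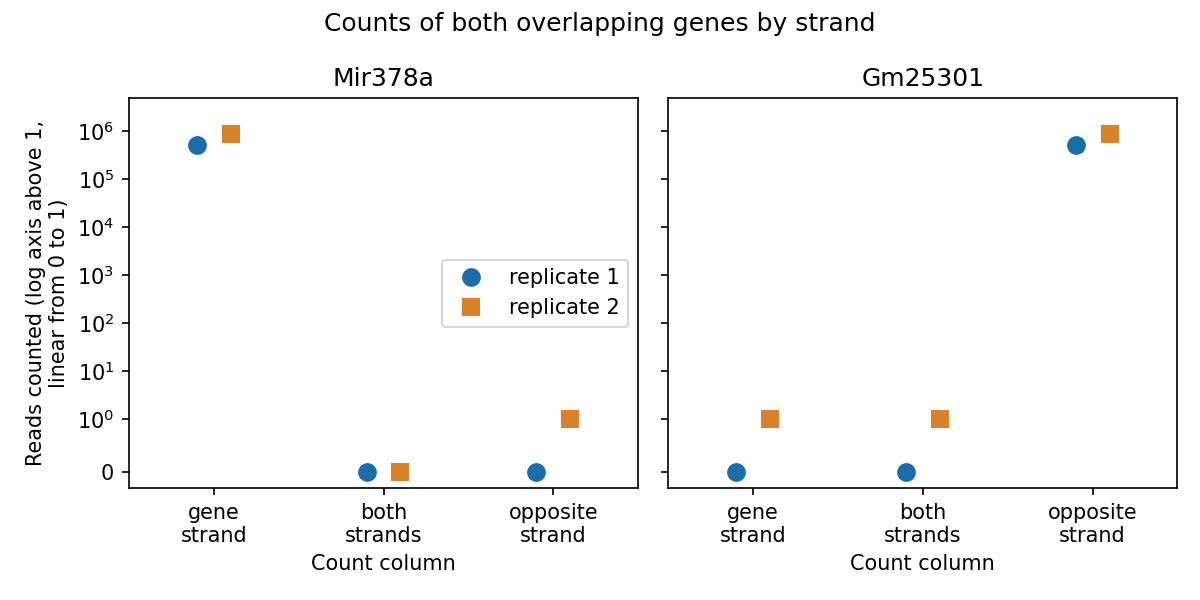
Reads counted (vertical axis, logarithmic above 1 and linear from 0 to 1) in the 3 count columns for Mir378a (left) and Gm25301 (right), circles for replicate 1 and squares for replicate 2. The reads of Mir378a stand in its gene-strand column and in the opposite-strand column of Gm25301, and its both-strand column is at 0 in both libraries.

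Reads that overlap genes on both strands are set apart as ambiguous in the both-strand column, at 991966 in replicate 1 and 1747892 in replicate 2, and none are in the gene-strand column. Mir378a alone corresponds to 52.4% of that number in replicate 1 and 49.7% in replicate 2. Without strand, the leading gene would be Mirlet7i in both libraries, with 15.0% and 11.3% of the both-strand counts.

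Other counted genes that overlap on opposite strands behaved in the same way. There were 32 such pairs, and in 24 of them the more abundant gene was detected. In all 24, that gene lost at least 90% of its counts in the both-strand column in both libraries. Of the 314 detected genes in no pair, 0 lost as much. Both outcomes follow from the way that column sets apart reads over genes on both strands, so they describe the counting and test nothing about Mir378a. The pairs together held 26.5% of all gene-strand counts in replicate 1 and 27.7% in replicate 2, and Mir378a gave about 13.9% and 13.8% of all counts. In 20 of the 24 pairs the partner had at most 3 counts in either library, as Gm25301 did, and in 2 pairs the partner was itself detected. Mir126a, the next pair by count, had 333445 and 634127 counts on its strand and 6 and 15 in the both-strand column, and its partner Mir126b had 3 and 1. By mean CPM, Mir30e came next, with 24425 and 85826 counts on its strand, and then Mir451a, of red cell precursors, with 35953 and 52029. Both had 0 in the both-strand column in each library.

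The hairpins of the Mir126a pair show this layout, since no sequence of the Mir378a pair is printed. They are from RefSeq on GRCm38.p6, chr2:26591357-26591429 on the plus strand and chr2:26591363-26591420 on the minus strand. Capitals mark the 58 bases that they share as reverse complements.
Mir126a: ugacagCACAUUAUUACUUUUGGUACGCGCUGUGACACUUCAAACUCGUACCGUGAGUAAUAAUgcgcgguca
Mir126b: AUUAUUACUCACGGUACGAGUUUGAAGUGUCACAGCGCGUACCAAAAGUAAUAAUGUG
All of Mir126b lies inside Mir126a, whereas all of Mir378a lies inside Gm25301. Over these 58 bases the strand of a read is what assigns it to a gene.

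**Figure D3:**
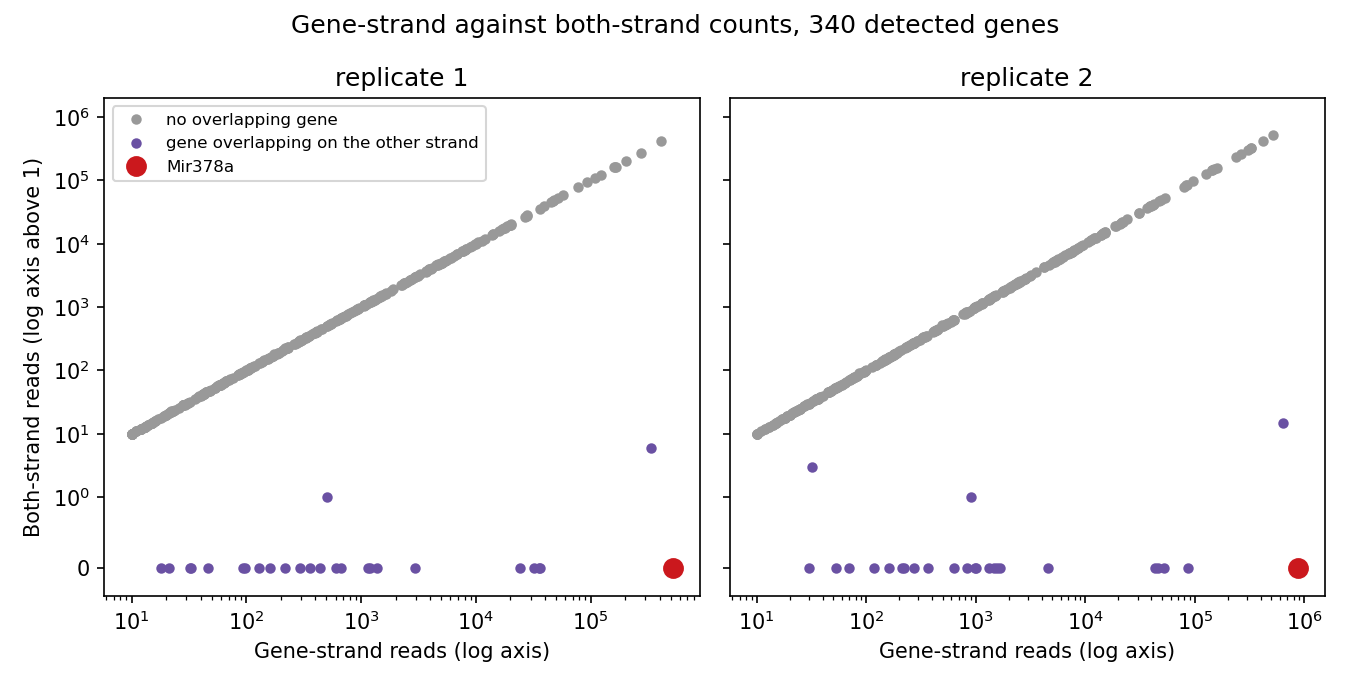
Gene-strand reads (horizontal, log axis) against both-strand reads (vertical, log axis above 1) of the 340 detected genes, replicate 1 left and replicate 2 right. Genes with no overlapping partner lie on or near the diagonal, and those with a partner on the other strand lie at or near 0, Mir378a being the one farthest to the right.

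Within the miR-378 family, nearly all uniquely placed reads were counted at Mir378a. Its share of the family's counts was 99.91% and 99.90%, with exact 95% intervals of 99.905% to 99.922% for replicate 1 and 99.896% to 99.909% for replicate 2. Mir378d (chromosome 10, 126710282 to 126710391, minus strand) had 329 and 628 counts, or 87.8 and 99.6 CPM. Mir378c (chromosome 14, 46954830 to 46954928, minus strand) had 105 and 181 counts, or 28.0 and 28.7 CPM. Mir378b (chromosome 11, 88352773 to 88352864, plus strand) had 15 and 35 counts, or 4.002 and 5.55 CPM. The order Mir378a, Mir378d, Mir378c, Mir378b held in both libraries with no overlap between the genes. Mir378a exceeded Mir378d 1581-fold and 1384-fold by counts. Per base of annotated hairpin these folds would be larger, as a description only. The Mir378a hairpin of 66 bases is shorter than those of Mir378b (92 bases), Mir378c (99) and Mir378d (110).

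The less abundant family members differed from Mir378a in other ways too. None of the 3 lay inside a protein-coding gene on the same strand. Each had as many counts in the both-strand column as on its own strand, since no counted gene overlaps them. Their predicted folds were weaker per base, at -0.34 kcal/mol per base for Mir378b, -0.27 for Mir378c and -0.32 for Mir378d, against -0.58 for Mir378a. Over the whole hairpins, which are longer as annotated than that of Mir378a, the energies were -31.1, -27.0 and -35.0 kcal/mol, against -38.5. Most of the 340 detected hairpins had a lower energy per base than each of these 3 (310, 333 and 321 of them). Of these 3, Mir378d, which shares the shortest stretch with Mir378a (15 bases), had the most counts. Mir378c, with 20 bases, came next and Mir378b, with 19 bases, had the fewest. How many multi-mapped reads fit Mir378a and Mir378c or Mir378b together was not tested.

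**Figure D4:**
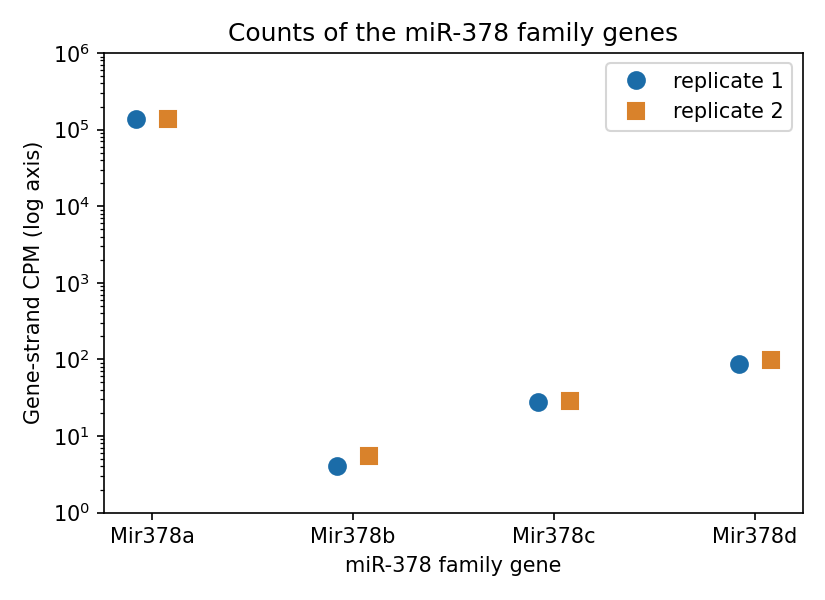
Gene-strand CPM (vertical, log axis) of the 4 genes of the miR-378 family, circles for replicate 1 and squares for replicate 2. Mir378a lies near 138304 CPM and the other 3 genes below 100 CPM, with both libraries close together for each gene.

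Between the libraries, Mir378a differed little on every scale tried, and which library was higher depended on the scale. With TMM scaling, which sets library sizes from the bulk of genes, it was 1.097-fold higher in replicate 2 (log2 ratio 0.13, exact 95% interval 0.13 to 0.14, counting error only). With total gene-strand counts the log2 ratio was -0.01, with DESeq2 size factors 0.18 and per read of the whole library -0.21. The direction is thus not settled by these data. On any scale Mir378a stood 0.18 above the median log2 ratio of the detected genes, with 196 of them below it and 143 above. With TMM scaling 40 of the 340 detected genes were closer to equal between the libraries than Mir378a, against 3 with total counts, 56 with DESeq2 size factors and 67 per read of the whole library. As background, 68 of the 340 genes (20.0%) differed at least 2-fold. These ratios compare 1 library with another and carry no p-value. The cardiac muscle list, at 0.832% of counts in replicate 1 and 1.25% in replicate 2, was less even than Mir378a. With TMM scaling some of its members went opposite ways, Mir208a by a log2 ratio of -1.34, Mir499 by 1.18 and Mir208b by 2.26. Ratios of its Mir1a and Mir133a genes are not given here, and multi-mapped reads are missing from the list. The part of the cardiac muscle microRNAs in the ratio of Mir378a was not tested.

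The abundant genes with the ratio nearest that of Mir378a were sought among the same 75, over these 2 libraries only. Mir181b-2, of the miR-181 family, was the nearest, with 1257 and 1254 CPM and a log2 ratio of 0.14. Mir98, a let-7 family member on the X chromosome, had 2380 and 2385 CPM. Mir379, from the imprinted Dlk1-Dio3 region, had 3000 and 3030 CPM (log2 ratio 0.16). Mir324 had 1841 and 1795 CPM and Mir744 had 3210 and 3276 CPM. The distance from Mir378a in log2 ratio was at most 0.04 among these 5 genes. With 2 libraries such likeness is a description of these values only.

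**Figure D5:**
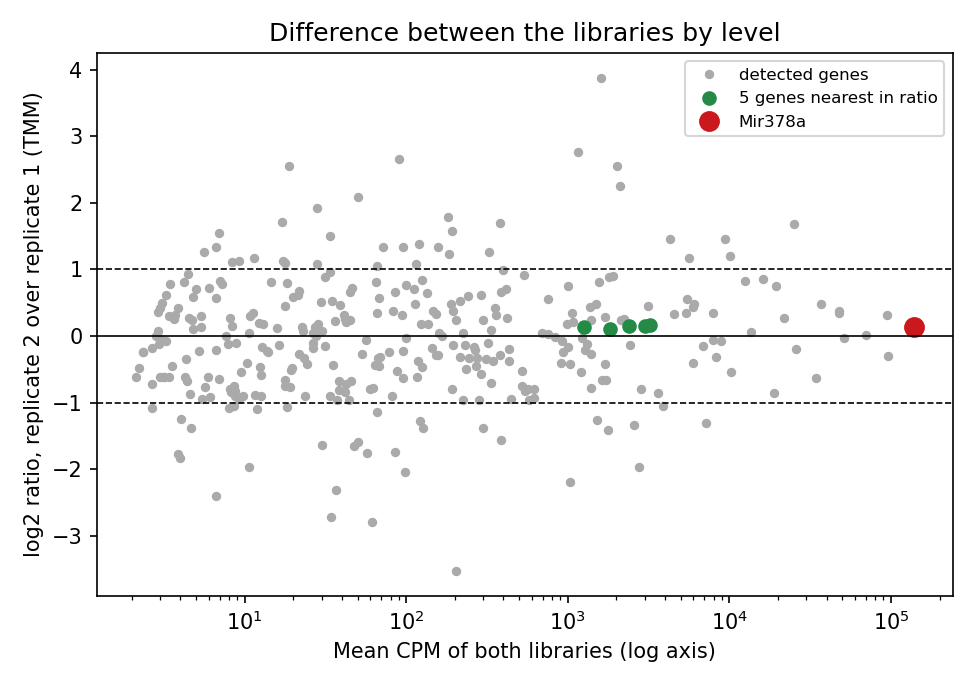
log2 ratio of replicate 2 over replicate 1 with TMM scaling (vertical) against mean CPM (horizontal, log axis) of the 340 detected genes, with dashed lines at a 2-fold difference. Mir378a, the rightmost point, has a ratio of 0.13, and 68 genes lie on or beyond the dashed lines.

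Within 500 kb of Mir378a lay 6 other genes of the count tables, Gm25301 included, and only the cluster of Mir143 and Mir145a had more than 1 count. These genes, known from vascular smooth muscle, lie on the strand of Mir378a, 251 and 249.9 kb away. Mir143 reached 43579 and 51393 CPM, so that Mir378a exceeded it 3.18-fold and 2.68-fold. Mir145a had 1211 and 1920 CPM. Both were higher in replicate 2 with TMM scaling, by log2 ratios of 0.38 and 0.81, against 0.13 for Mir378a. The other 3 neighbours had at most 1 count in a library, namely Mir6983 (0 and 1), Mir6982 (0 and 0) and Mir7220 (0 and 0). Of all counts on chromosome 18, which holds 57 counted genes, Mir378a took 75.5% in replicate 1 and 72.0% in replicate 2.

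Mir378a was set beside a list of 36 microRNAs linked to mitochondria, lipid or glucose metabolism, of which 35 were matched and 31 detected; Mir696 was not matched. The list, Mir378a included, took 30.9% of counts in replicate 1 and 35.9% in replicate 2, and Mir378a made up 44.9% and 38.4% of it. These shares are of uniquely mapped reads. Members whose mature form fits a second gene can be counted low, such as Mir26a-1 (6 and 137 counts) and Mir103-1 (14 and 7). How far this raises the share of Mir378a was not tested. Its detected members had a median of 430 CPM, against 80.0 CPM over all detected genes. The list was chosen with earlier results of these data known and holds Mir378a and its family. These medians are therefore a description only. Below Mir378a came Mir23b with 44229 and 51212 CPM and Mir23a with 32734 and 41593 CPM, whose family is known to act on glutaminase. Mir143, also linked to insulin signalling, lay between them by its mean of 47486 CPM. Mir26b, in the phosphatase gene Ctdsp1, had 12906 and 37666 CPM. Mir30a, of a family linked to mitochondrial fission in heart muscle cells, had 9597 and 15380 CPM. All 5 of these genes were below Mir378a by at least 2.68-fold in both libraries.

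At the low end of that list, Mir762 had no count in either library, which allows up to 0.8003 and 0.476 CPM. Mir33, an intronic microRNA of the cholesterol regulator Srebf2, had 26 counts in replicate 1 and 15 in replicate 2, and was added to the named genes after its values were seen. Of the 31 detected members, 10 (32.3%) differed at least 2-fold between the libraries with TMM scaling, 3 higher and 7 lower in replicate 2, beside the 20.0% of all detected genes. Mir208a, Mir208b and Mir499, already given with the cardiac muscle list, belong to both lists and are among these 10. The median log2 ratio of the metabolic list was 0.17, with Mir378a at 0.13, against -0.05 over all detected genes. Mir378a was therefore among the 21 members that stayed within 2-fold.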

How the data were processed

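The deposited values are unnormalized counts of reads at each microRNA gene, made by the authors on mm10 with GENCODE M21, per the file headers in the accompanying text. The aligner and counter were not given in the sources used here. The meaning of the 3 count columns (both strands, gene strand, opposite strand) was inferred from the values, and the gene strand was used. Per library 4 entries name no gene and stayed out of totals: of all reads, 36.8% and 48.1% mapped to several places, 16.0% and 11.5% were unmapped, and 4.78% and 3.43% lay outside the genes. Counts were scaled to CPM. At these depths 3 counts equal 0.8003 CPM in replicate 1 and 0.476 CPM in replicate 2. Ratios used TMM factors over all genes (edgeR 4.0.16) and a prior of 0.5 counts, with total counts and DESeq2 1.42.0 size factors as alternatives. TMM moved log2 ratios by 0.14 against total counts. Intervals are exact Clopper-Pearson 95%. Hairpins came from the GENCODE transcripts and were folded with RNAfold 2.7.2. The ratio and the 2-fold call were tested on simulated counts that held counting error only and were scaled by total counts. That check does not cover the spread between libraries or TMM scaling.

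The members and lists were chosen with earlier results of these data known. Named genes are Mir378a and Gm25301, the family and hairpins sharing at least 20 bases, ranks 2 to 5, the 5 nearest in ratio above 1000 CPM, counted genes within 500 kb, the 3 other overlapping pairs highest by mean CPM, and the 6 highest metabolic genes and those at or under 3 counts. In bulk RNA of 1 group no test of a condition was possible.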

Additional observations from a re-analysis of the deposited data

How the results depend on the processing

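Among uniquely mapped reads, Mir378a was first in each library alone, with 137851 to 138757 CPM. Because it was selected on these counts, its first place is a description and no check of the processing. Its share of the family ran from 99.90% to 99.91%. Strand decided its level. The mean was 0 CPM with the both-strand column and 0.286 CPM with the opposite-strand column, because reads over genes on both strands are set apart in the first and belong to the other strand in the second. Over all reads the mean was 54949 per 1000000 reads, since the total then includes unmapped and multi-mapped reads. The log2 ratio of Mir378a, 0.13 with TMM, was -0.0095 with total counts, -0.011 with total counts without Mir378a, 0.18 with DESeq2 size factors and -0.21 per read of the library. The genes closer to equal than Mir378a numbered 40 with TMM, 3 with total counts, 56 with DESeq2 size factors and 67 per read of the library. The genes at least 2-fold apart numbered 68 of 340. They were 39 of 216 with a minimum of 100 counts and 155 of 574 with a minimum of 1 count. Hairpins sharing a stretch with Mir378a on either strand numbered 2 at 20 bases, 4 at 16 bases and 1 at 24 bases. Of the 22 alternative values over 8 results, 10 moved by less than the SD between the libraries, the counting interval or, for counts, a factor of 1.5. Those 10 include the level of Mir378a in each library alone, on which it was selected. No ratio of Gm25301 is given, as its counts were under 3. No paired analysis was possible because there is 1 group. Depth leaves Gm25301 and the other genes at 0 to 3 counts without a usable ratio.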
